A study of Oryza sativa with 18 samples.

Results

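The data describe 271 transcripts of rice roots that were low in 2,4-D roots at each of 3 sampling times, of 66860 transcripts counted. They were chosen on measured values. For each transcript, CPM is the count scaled to a common library total of 1000000, and L is the log2 of the mean 2,4-D CPM plus 1 over the mean mock CPM plus 1. A transcript was taken where L was -2 or lower at all 3 times, where all 3 2,4-D libraries lay below all 3 mock libraries at every time, and where mean mock CPM reached 10 at 1 time or more. Of the 13531 transcripts at that mock level, 2.0% met the rule. L alone was -2 or lower in 4.22% of them at 1 dpt (days post treatment), in 4.69% at 7 dpt, in 5.0% at 14 dpt and at every time in 2.13%. Because the rule uses the difference between 2,4-D and mock roots, that difference is given below as a description, without a test.

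Oryza sativa cv. Nipponbare seedlings, 7 days old and grown on low-nitrogen medium, were soaked whole for 1 h in a solution of the synthetic auxin 2,4-D at 50 µM, or in a mock solution. Messenger RNA was taken from roots at 1, 7 and 14 dpt and sequenced, with 3 biological replicates for each of the 6 groups and 18 libraries in all. At 7 and 14 dpt only 2,4-D roots that carried nodule-like structures (NLS) were used. By the labels, the libraries of 7 and 14 dpt share a sequencing batch and those of 1 dpt form another, so that time and sequencing batch cannot be told apart in any comparison of 1 dpt with the later times. All plants were of the same wild type cultivar. Whole roots were used, so fewer cells of a type and less RNA per cell cannot be told apart.

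Several lists described below concern the walls of root tissues. Water-conducting xylem vessels lay down a secondary wall of cellulose, made by cellulose synthase complexes that follow cortical microtubules, and of xylan and lignin, which laccases and peroxidases polymerise from phenolic precursors. The endodermis seals the vascular cylinder with the lignified Casparian strip and with suberin, a polyester of fatty acids, glycerol and phenolics. Auxin directs the formation of vascular tissue and of new root organs, and 2,4-D is broken down more slowly in plants than natural auxin.

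Library totals ran from 9416952 to 18057748 counts (median 13489839). The GH3 transcript LOC_Os01g55940.1, from a family of enzymes that conjugate auxin to amino acids, stood at 41.4 to 82.7 CPM in the mock libraries. It stood at 1849 to 2510 CPM in the 2,4-D libraries of 1 dpt, at 449 to 802 CPM at 7 dpt and at 149 to 1064 CPM at 14 dpt. This transcript was taken from the study's genes that differed at 7 dpt, so its difference from mock is no independent check of the treatment. No replicate pair differed by less than sampling noise, so each library was counted once. LOC_Os01g70820.1, a photosystem II protein of the PsbP family and a marker of green tissue, lay at 5.80 to 10.1 CPM in mock roots and at 12.55 to 16.9 CPM in 2,4-D roots at 1 dpt, and at 5.27 to 7.07 CPM against 14.4 to 25.3 CPM at 7 dpt, so that the groups did not overlap. At 14 dpt it lay at 6.11 to 19.96 CPM against 9.89 to 27.1 CPM. This transcript, also taken from the study's genes that differed at 7 dpt, was thus higher in 2,4-D roots at 1 and 7 dpt. The members were lower at those times, and the part of this transcript in their levels was not tested.

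Together the 271 transcripts took 1.24 to 2.98% of all counts in the mock libraries and 0.107 to 0.482% in the 2,4-D libraries. Their summed CPM in the 2,4-D libraries of 1 dpt was 11.8, 8.73 and 15.6% of the mock mean of that day. At 7 dpt it was 7.27, 5.56 and 22.1%, and at 14 dpt 8.12, 12.6 and 6.23%. The mock libraries themselves varied: they lay at 112, 113 and 75.01% of their mean at 1 dpt, at 124, 103 and 73.3% at 7 dpt and at 96.0, 72.0 and 132% at 14 dpt. The lowest mock library was thus more than 3 times the highest 2,4-D library of its day.

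**Figure D1:**
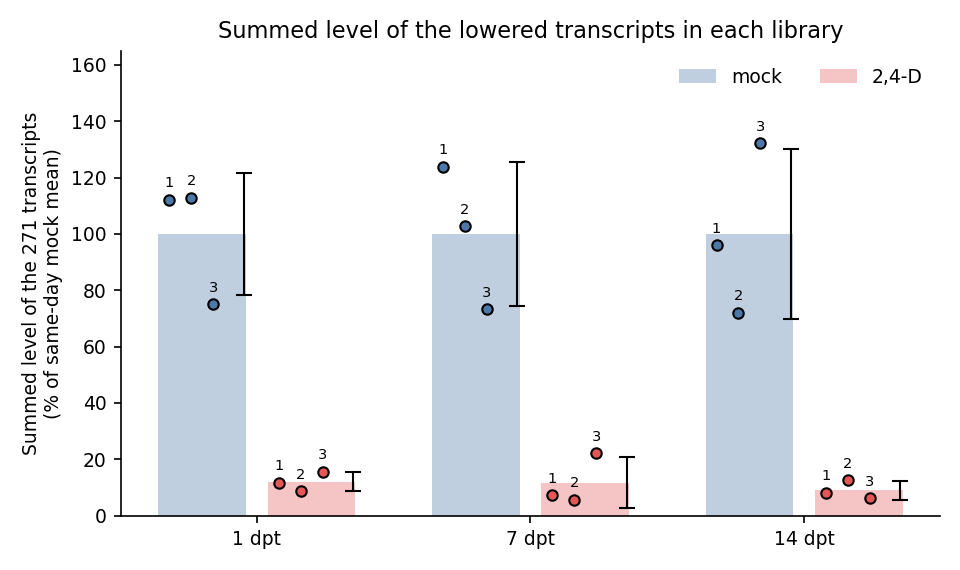
Summed CPM of the 271 transcripts in each library, as a percentage of the mock mean of the same day. Bars are means over 3 libraries, whiskers are 1 SD, and points are libraries with their replicate numbers; the 2,4-D libraries lie between 5.56 and 22.1% and the mock libraries between 72.0 and 132%.

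The median L of the members was -2.82 at 1 dpt, -2.87 at 7 dpt and -2.85 at 14 dpt, against 0.08, 0.07 and 0.07 over the 15149 transcripts tested, those with 10 CPM or more in 2 of the 18 libraries or more. It was -3.56 at 7 dpt without 2,4-D replicate 3 and -2.37 at 14 dpt without mock replicate 3. The rule sets the upper end of L at -2. Its lower end was -5.98 at 1 dpt, -6.97 at 7 dpt and -7.37 at 14 dpt. L was -3 or lower at every time for 46 members and -4 or lower at every time for 6. For 184 members the 3 values of L lay within 1 log2 unit of each other, and the median range was 0.74. L was lowest at 1 dpt for 75 members, at 7 dpt for 105 and at 14 dpt for 91. It was lower at each later time for 49 members and higher at each later time for 35. Among the 15 members whose L ranged over 2 units or more, 9 had their lowest value at 7 dpt, 4 at 14 dpt and 2 at 1 dpt.

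**Figure D2:**
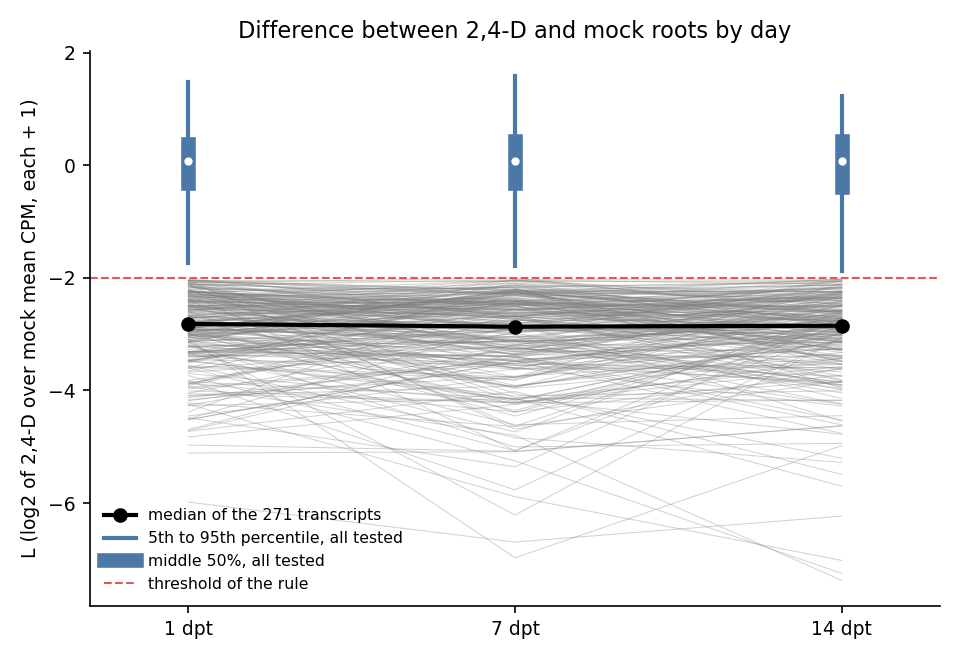
L, the log2 of mean 2,4-D over mean mock CPM with 1 added to each, at 1, 7 and 14 dpt. Grey lines are the 271 transcripts and black points their medians (-2.82, -2.87 and -2.85). Blue bars give the middle 50% and the 5th to 95th percentile of all 15149 tested transcripts, whose medians are 0.08, 0.07 and 0.07, and the dashed line is the threshold of -2.

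In mock roots the members were middling to high among the tested transcripts, with a median percentile of 61.8 by mean mock CPM, which is not scaled to transcript length. Their median mock CPM was 53.9 at 1 dpt, 41.4 at 7 dpt and 28.9 at 14 dpt, whereas the median over tested transcripts was 27.6, 28.5 and 28.6. The rule's mock level of 10 CPM and its L of -2 or lower favour high mock levels, so these comparisons in part restate the rule. In 2,4-D roots the median CPM of the members was 5.89, 3.97 and 2.47. Mean 2,4-D CPM was under 1 for 21 members at 1 dpt, 46 at 7 dpt and 64 at 14 dpt. Counts of 0 in all 3 libraries of a group occurred for LOC_Os05g12240.1 at 7 dpt and for LOC_Os05g12630.2 at 1 dpt, and neither transcript has a name here (the latter was picked after its values had been seen). With a floor of 3 counts over the 3 libraries, 0.0764 CPM, LOC_Os05g12240.1 was at least 170-fold lower than its mock mean of 12.95 CPM at 7 dpt. That mean rested on mock replicate 1, without which it was 4.25 CPM and the bound 55.7-fold. LOC_Os05g12630.2, with a floor of 0.0784 CPM and a mock mean of 4.23 CPM, was at least 53.9-fold lower at 1 dpt. These bounds cover counting error only.

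Full separation of the libraries was met by 19.9% of the 13531 transcripts at 1 dpt, by 16.2% at 7 dpt and by 17.3% at 14 dpt, and at every time by 6.56%.

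Names came from the study's tables of genes that differed at 7 dpt, which list 193 of the 271 and name 174. Many of the names are those of the best-matching Arabidopsis gene. The other 97 members have no name here, and their median L was -2.93, -2.81 and -2.77 at the 3 times, beside -2.74, -2.87 and -2.90 for those named. Words in the names sorted 83 members into 16 lists, which together held 41.5% of the summed mock CPM of the members at 1 dpt, 41.5% at 7 dpt and 38.2% at 14 dpt. List titles are labels for these words, so a listed transcript need not have the function in the title. Of the tested transcripts in the study's classes, members made up 25 of 190 transporters, 9 of 169 transcription factors, 5 of 197 kinases and 1 of 30 hormone-related genes. Of all 1991 tested transcripts in those tables, which hold both directions of change, 193 were members.

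Lists differed in size, and that of laccases, dirigent proteins and lignan reductases gave 12 members of 21. Secondary wall proteins gave more members than any other list, 14 of 31 listed, but a smaller share. The 3 cellulose synthases among them held 1072 CPM in mock roots at 1 dpt, 1098 CPM at 7 dpt and 790 CPM at 14 dpt, of which 5.54, 10.4 and 4.54% were left in 2,4-D roots. LOC_Os01g54620.1, a cellulose synthase, stood at 501, 425 and 337 CPM in mock roots and 32.1, 21.8 and 32.7 CPM in 2,4-D roots at 1 dpt. At 7 dpt it stood at 540, 504 and 291 CPM against 27.7, 17.0 and 122 CPM, and at 14 dpt at 416, 229 and 341 CPM against 21.0, 29.0 and 9.49 CPM. The 3 2,4-D libraries were close to each other at 1 dpt, while at 7 dpt replicate 3 stood well above the other two. L was -3.82, -2.98 and -3.985, and at 7 dpt it was -4.26 without that library.

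The other cellulose synthases, picked after their values had been seen, had 2,4-D libraries in a like order at 7 and 14 dpt. LOC_Os10g32980.1 is named cellulose synthase A4, a subunit of the secondary wall complex in Arabidopsis. Its 2,4-D libraries held 19.3, 13.7 and 22.8 CPM at 1 dpt, 10.02, 3.27 and 78.7 CPM at 7 dpt and 7.79, 16.1 and 3.03 CPM at 14 dpt, beside 163 to 427 CPM over its 9 mock libraries. LOC_Os09g25490.1 held 13.4, 9.16 and 13.4 CPM at 1 dpt, 8.58, 3.35 and 70.9 CPM at 7 dpt and 7.23, 11.96 and 2.15 CPM at 14 dpt, beside 135 to 395 CPM in mock. In both, the replicate 3 library of 7 dpt was the highest 2,4-D library of all and remained below every mock library.

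Fasciclin-like arabinogalactan proteins, cell surface glycoproteins found in thickening walls, gave 5 members of 9 listed. LOC_Os05g48900.1 had mock levels of 485, 739 and 351 CPM at 1 dpt, 239, 263 and 109 CPM at 7 dpt and 155, 88.2 and 281 CPM at 14 dpt. Its 2,4-D levels were 46.6, 23.9 and 57.0 CPM, 21.7, 8.49 and 98.6 CPM, and 37.0, 44.6 and 3.75 CPM. At 7 dpt its highest 2,4-D library thus came close to its lowest mock library, and L, which was -3.60, -2.22 and -2.58, became -3.67 at 7 dpt without that library. LOC_Os05g48890.1, a near neighbour of the same name, had L of -3.32, -2.93 and -2.71.

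The rest of that list consisted of 2 COBRA-like proteins of 4, which help to orient cellulose, 1 DUF579 protein of 2, from the family of xylan-modifying enzymes, and 3 xylem cysteine peptidases of 4, which in Arabidopsis clear the contents of dying vessels. Of their summed mock CPM, 5.79, 13.6 and 6.48% was left in 2,4-D roots for the COBRA-like proteins at 1, 7 and 14 dpt. The share left was 6.97, 13.3 and 6.76% for the DUF579 protein and 18.9, 15.5 and 14.8% for the peptidases. Within the peptidases, LOC_Os02g48450.1 (xylem cysteine peptidase 1, picked after its values had been seen), with L of -3.87, -4.38 and -3.73, lay lower than both copies of xylem cysteine peptidase 2, whose L ran from -2.05 to -2.84. Glycosyl hydrolase family 10, a family with xylan-cutting enzymes, lies outside the lists. LOC_Os03g10440.1 of that family was among the 8 members with the lowest mean L. Its mock libraries held 182, 129 and 61.4 CPM at 1 dpt, 138, 130 and 97.3 CPM at 7 dpt and 28.1, 44.8 and 121 CPM at 14 dpt. Its 2,4-D libraries held 3.66, 3.16 and 1.07 CPM, 2.65, 1.39 and 3.78 CPM, and 1.06, 3.54 and 0.40 CPM, and all 9 stayed far below the lowest mock library.

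Members included 7 of 8 listed laccases and 10 of 35 listed peroxidases. The peroxidases were listed by a superfamily name, so not all of them need act on lignin. The laccases together held 479, 371 and 285 CPM in mock roots at 1, 7 and 14 dpt, of which 12.1, 8.93 and 6.84% was left in 2,4-D roots. The lowest L among them at 7 and 14 dpt, -5.00 and -4.94, belonged to LOC_Os12g15920.1 (laccase 7), which had -3.19 at 1 dpt, and the neighbouring loci LOC_Os01g62480.1 and LOC_Os01g62490.1 (both laccase 17) had L of -3.48, -2.57 and -2.90 and of -4.06, -4.22 and -4.17. These laccases were picked after their values had been seen. The 3 dirigent-like members of 9 listed, proteins that guide the coupling of phenolic radicals, kept 19.9, 15.1 and 10.2% of their mock CPM. LOC_Os11g07830.1, one of them, had mock levels of 206, 177 and 105 CPM, 218, 114 and 105 CPM, and 87.5, 77.98 and 190 CPM at the 3 times. In 2,4-D roots it held 31.9, 27.1 and 39.0 CPM, 5.61, 7.27 and 51.0 CPM, and 3.98, 9.91 and 9.89 CPM, and L was -2.28, -2.72 and -3.74 (-4.30 at 7 dpt without 2,4-D replicate 3).

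The peroxidases held 1636, 1211 and 1050 CPM in mock roots at 1, 7 and 14 dpt, and 13.2, 9.84 and 8.69% of this was left in 2,4-D roots. LOC_Os06g46799.1 had L of -2.49, -2.69 and -2.87. In LOC_Os05g04500.1 the difference was larger, with mock libraries at 199, 285 and 218 CPM at 1 dpt, 174, 150 and 58.4 CPM at 7 dpt and 43.2, 47.9 and 128 CPM at 14 dpt. Its 2,4-D libraries held 8.28, 6.24 and 9.11 CPM, 2.08, 0.65 and 18.1 CPM, and 0.65, 1.05 and 0.24 CPM. The groups did not overlap at any time. L was -4.73, -4.02 and -5.49, and at 7 dpt -5.76 without 2,4-D replicate 3. LOC_Os07g48030.1, picked after its values had been seen, went from an L of -2.097 at 1 dpt to -4.05 at 7 dpt and -5.20 at 14 dpt.

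The list titled suberin and wax enzymes gave 8 members of 36. It took every name holding GDSL or HXXXD, so not all of its transcripts need act on suberin or wax. The lowest mean L of all 271 belonged to LOC_Os01g11730.1, a GDSL-like lipase, from a family of ester hydrolases some of which act on cutin and suberin. It stood at 108, 123 and 80.6 CPM in the mock libraries of 1 dpt, at 275, 306 and 263 CPM at 7 dpt and at 173, 66.9 and 218 CPM at 14 dpt. In 2,4-D roots it stood at 0.52, 0.63 and 0.82 CPM, at 0.32, 0.82 and 4.05 CPM and at 0.65, 2.33 and 0.16 CPM. L was -5.98, -6.69 and -6.23, and with a pseudocount of 0.5 or 2 in place of 1 the value at 1 dpt became -6.49 or -5.32. The 4 GDSL members of 10 listed kept 10.3, 4.44 and 4.95% of their mock CPM.

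A further pair of members of this list lie close to each other on chromosome 1, and were picked after their values had been seen. LOC_Os01g63540.1 is named cytochrome P450 86A1, which in Arabidopsis hydroxylates fatty acids for root suberin, and LOC_Os01g63580.1 is named glycerol-3-phosphate acyltransferase 6, from the family that links such acids to glycerol. The first had mock levels of 123, 40.3 and 48.4 CPM, 75.8, 64.1 and 29.7 CPM, and 14.5, 38.6 and 42.0 CPM. Its 2,4-D levels were 6.49, 7.98 and 5.58 CPM, 5.13, 3.76 and 7.90 CPM, and 0.89, 6.48 and 2.63 CPM. The second had L of -2.07, -2.23 and -2.24, smaller in size at each time than the L of the first, -3.22, -3.13 and -2.92. The 2 members among 4 ketoacyl-CoA synthases, which lengthen fatty acids, kept 14.0, 19.9 and 12.2% of their mock CPM. Of 9 listed proteins of the Casparian strip-like family, 2 were members, and LOC_Os04g58760.1 had L of -2.34, -2.87 and -2.96.

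The list titled lipid transfer proteins, which are small secreted carriers of lipids, gave 7 members of 16. Together these held 1875, 1452 and 1105 CPM in mock roots at 1, 7 and 14 dpt. The members described from this list are named for a superfamily that also holds bifunctional inhibitors and seed storage 2S albumins. They are called lipid transfer proteins here for short, and not all of them need carry lipids. LOC_Os07g18750.1 had mock levels of 403, 491 and 314 CPM, 439, 486 and 344 CPM, and 384, 123 and 311 CPM. Under 2,4-D it held 26.2, 22.6 and 17.4 CPM, 40.3, 27.0 and 47.2 CPM, and 20.5, 26.5 and 28.8 CPM. Unlike the cellulose synthases it had no 2,4-D library that stood apart. LOC_Os03g01300.1, named azelaic acid induced 1 after an Arabidopsis lipid transfer protein of systemic immunity, held 720, 1360 and 812 CPM in the mock libraries of 7 dpt. It held 75.3, 107 and 28.4 CPM in the 2,4-D libraries of that day. Its L was -4.45, -3.76 and -3.03, and at 14 dpt it became -2.14 without mock replicate 3, which held 966 CPM beside 252 and 289 CPM in the other two.

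Among transporters, 3 of 10 listed aquaporins were members. LOC_Os02g44080.1, a tonoplast intrinsic protein 2;3 and thus a water channel of the vacuole, had mock levels of 653, 1030 and 657 CPM at 1 dpt, 619, 665 and 204 CPM at 7 dpt and 233, 275 and 743 CPM at 14 dpt. Its 2,4-D levels were 56.3, 26.8 and 55.7 CPM, 8.01, 17.9 and 162 CPM, and 38.2, 34.1 and 122 CPM. The libraries of a day thus spread widely, and L, which was -4.05, -2.97 and -2.67, became -5.16 at 7 dpt without 2,4-D replicate 3 and -1.96 at 14 dpt without mock replicate 3. Major facilitators and peptide transporters gave 6 members of 25, led by LOC_Os11g42430.1 with L of -2.92, -3.42 and -2.41. At 1 dpt that transcript held 8.66 and 2.53 CPM in 2,4-D replicates 1 and 2 but 80.4 CPM in replicate 3, without which L at 1 dpt was -5.18. Nodulin-like transporters gave 2 members of 13, with LOC_Os06g01660.1 at L of -3.31, -2.92 and -2.49.

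Enzymes that modify small molecules were also present. UDP-sugar transferases, which attach sugars, gave 5 members of 25, and LOC_Os02g28900.1 had L of -2.29, -3.49 and -3.18. Glutathione transferases, which conjugate reactive compounds, gave 3 of 11. LOC_Os10g38670.1 (TAU 18) had mock levels of 530, 541 and 266 CPM at 1 dpt, 297, 103 and 107 CPM at 7 dpt and 38.5, 94.2 and 168 CPM at 14 dpt, against 26.5, 9.63 and 74.2 CPM, 8.33, 6.04 and 20.2 CPM, and 29.4, 11.4 and 4.78 CPM. Its mean level was lower at 14 than at 1 dpt in both treatments. In 2,4-D roots the libraries of those times overlapped, and replicate 3 of 1 dpt was the highest. These times also lie in different sequencing batches. Cytochromes P450 gave 4 of 32, with LOC_Os03g25150.1 near the threshold (L of -2.27, -2.04 and -2.12), and terpenoid synthesis 1 of 6, LOC_Os04g26960.1 with L of -2.22, -2.89 and -2.06. Without 2,4-D replicate 3, which held 8.72 CPM beside 0.16 and 0, the L of that terpene synthase at 7 dpt became -4.76. The 1 member among 15 phenylpropanoid and lignin enzymes was LOC_Os11g12760.1, an O-methyltransferase with 42.3, 43.9 and 32.4 CPM in mock roots at 7 dpt, 3.92, 4.16 and 6.05 CPM at 1 dpt and 7.81, 3.64 and 14.9 CPM at 14 dpt. Its 2,4-D libraries ranged from 0 to 0.78 CPM, and it had its lowest L, -5.07, at 7 dpt. That list took every name holding O-methyltransferase, whatever its substrate.

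Transcription factors among the members were few. Of 17 listed NAC factors 3 were members, and they kept 5.50, 6.41 and 7.81% of their mock CPM. The other listed NAC factors went both ways, as given below. LOC_Os10g33760.1 (NAC domain protein 74) had mock levels of 76.4, 42.9 and 54.9 CPM, 71.9, 67.0 and 123 CPM, and 40.7, 22.8 and 67.4 CPM. Its 2,4-D libraries held 2.54, 3.71 and 1.15 CPM, 2.404, 5.31 and 9.07 CPM, and 2.19, 3.66 and 3.59 CPM. LOC_Os05g48850.1 is named NAC domain protein 73, an activator of secondary wall genes in Arabidopsis, and had L of -2.92, -3.09 and -2.76. Of 23 MYB factors 3 were members. LOC_Os08g05520.1, named MYB103 after an Arabidopsis regulator of secondary walls and lignin, had mock levels of 37.7, 32.2 and 29.5 CPM, 37.6, 28.0 and 14.3 CPM, and 34.3, 10.9 and 22.5 CPM. Its 2,4-D levels were 8.66, 5.53 and 4.84 CPM, 1.52, 0.98 and 6.46 CPM, and 1.62, 2.88 and 0.72 CPM, and L was -2.22, -2.79 and -3.10 (-3.62 at 7 dpt without 2,4-D replicate 3).

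**Figure D3:**
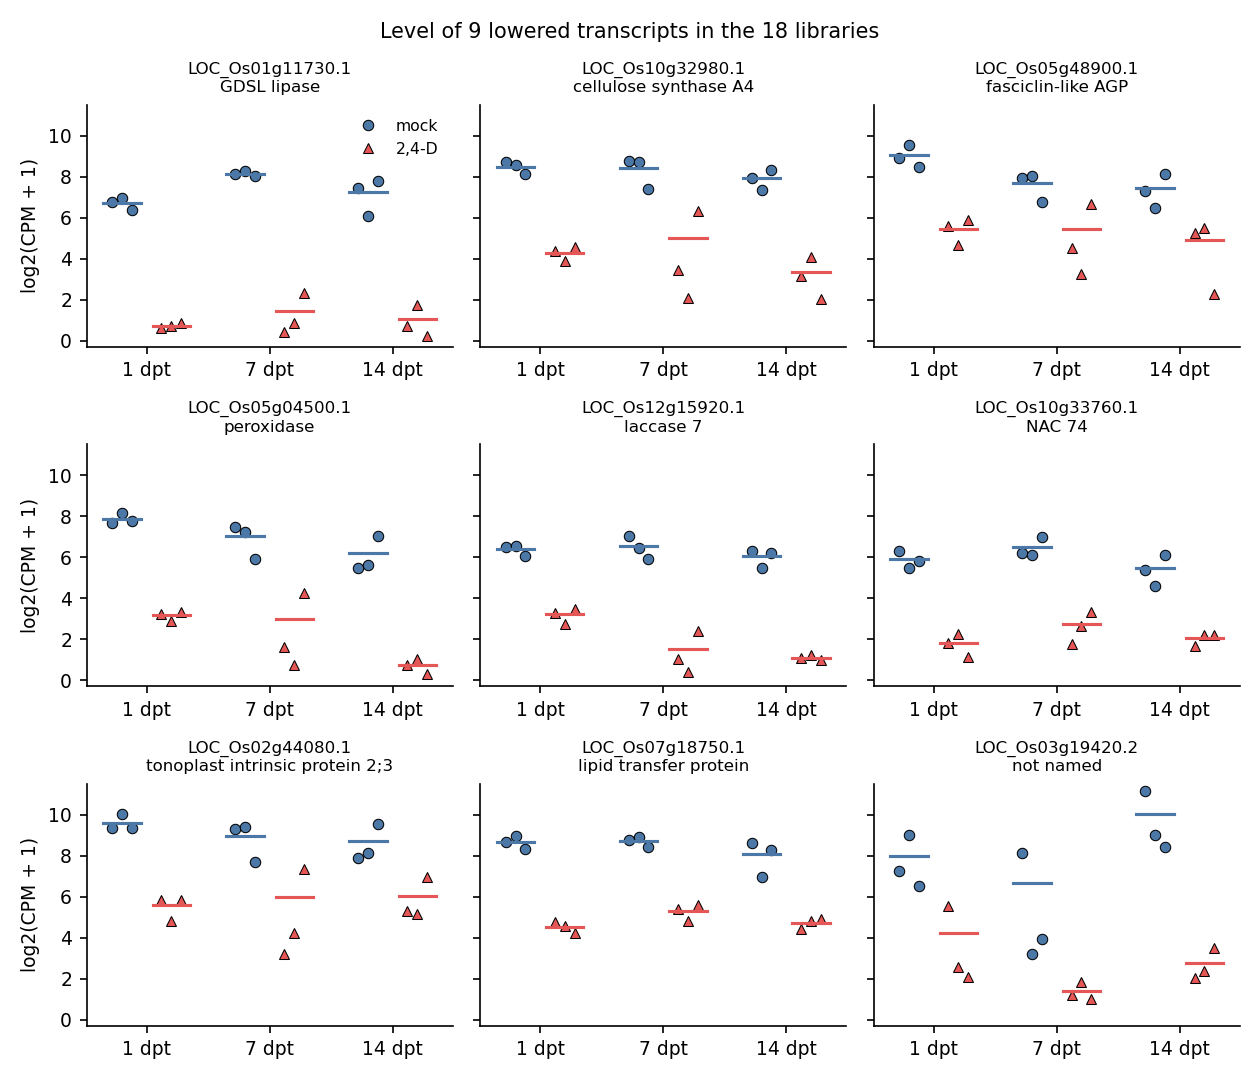
Level of 9 of the lowered transcripts as log2(CPM + 1) in the 18 libraries at 1, 7 and 14 dpt. Circles are mock and triangles 2,4-D libraries, drawn from left to right as replicates 1 to 3, and bars are log2 of the group mean plus 1. In the cellulose synthase A4, fasciclin-like and peroxidase panels replicate 3 is the highest 2,4-D library of 7 dpt, whereas the lipid transfer protein LOC_Os07g18750.1 has 2,4-D libraries between 17.4 and 47.2 CPM.

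The 188 members in no list include 91 with a name. The following were picked from them after their values had been seen. LOC_Os03g21960.1 (PYRIMIDINE 4, by name an enzyme of pyrimidine breakdown), which the naming rule also takes for its mock level, had L of -2.87, -3.19 and -3.85. The names included tubulin beta chain 2 (LOC_Os03g45920.1, L of -3.03, -2.37 and -3.14), a MAP65 microtubule bundling protein (LOC_Os03g50970.1, -2.91, -2.14 and -2.47), SPIRAL1-like2 (LOC_Os11g41150.1, -2.61, -3.36 and -3.41) and actin depolymerizing factor 6 (LOC_Os12g43340.1, -2.55, -3.12 and -3.02). IQ-domain 13 (LOC_Os01g67090.1), which in Arabidopsis shapes the pits of xylem walls, had L of -2.72, -2.31 and -3.02. Fatty acid reductase 4 (LOC_Os09g39410.1), which in Arabidopsis makes fatty alcohols of suberin, had L of -2.82, -3.23 and -3.91.

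Others of these concern signalling and auxin. LOC_Os08g24790.1, named an auxin-responsive family protein, had mean mock levels of 313, 232 and 186 CPM and L of -3.21, -3.12 and -4.24. LOC_Os03g62060.1 is a peptidase of the M20/M25/M40 family, which includes hydrolases of auxin conjugates. It had mean mock levels of 285, 193 and 76.7 CPM and L of -4.49, -5.36 and -2.71. Its 2,4-D libraries held 0.97, 0.71 and 33.6 CPM, 0.32, 0.16 and 10.7 CPM, and 31.7, 0.55 and 0.40 CPM, so that 1 library held most of the 2,4-D level at each time. A peptide hormone of the RALF type (LOC_Os01g15320.1) had L of -2.38, -2.14 and -2.94. Glutamate decarboxylase 4 (LOC_Os04g37500.1), which makes GABA, went from -2.22 at 1 dpt to -4.13 and -4.18.

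The other transcripts of the 16 lists, which the rule did not take, were tested for 2,4-D against mock with the quasi-likelihood test of edgeR, fitted over all tested transcripts. Transcripts were called where the adjusted p was under 0.05 with a log2 fold change of at least 1 in either direction. The lists come from genes the study picked for differing at 7 dpt in these libraries, so that their counts are no independent evidence at any time. Of 235 such transcripts 86 were called lower and 33 higher at 1 dpt, 150 lower and 64 higher at 7 dpt, and 132 lower and 34 higher at 14 dpt. Over all tested transcripts, which were not picked in this way, 7.6, 8.4 and 9.22% were called lower and 4.65, 6.04 and 5.25% higher at the 3 times. The counts of 1 dpt depended on single libraries: lower calls were 55 and 50 when mock replicate 1 or 2 was left out and 51 and 36 when 2,4-D replicate 1 or 2 was, and higher calls were 20 without mock replicate 2. At 7 dpt, higher calls were 41 without mock replicate 1.

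By list, of the other phenylpropanoid and lignin enzymes, 11 of 14 were called lower and 0 higher at 14 dpt (6 lower without 2,4-D replicate 1), and of the other laccases, dirigent proteins and lignan reductases 6 of 9 lower and 0 higher. Other secondary wall proteins were called lower in 11 of 17 and higher in 1 at 14 dpt, and other suberin and wax enzymes lower in 18 of 28 and higher in 1. Higher calls of these 4 lists without 1 library of 14 dpt ran from 0 to 2. In the same order, the 4 lists had 11, 6, 12 and 19 lower calls at 7 dpt, and 2, 0, 2 and 5 higher calls. At 1 dpt they had 5, 4, 10 and 13 lower calls and 1, 1, 1 and 4 higher calls. With 1 library left out, lower calls of secondary wall proteins were as few as 4 at 7 dpt and 3 at 1 dpt. Of the 14 other NAC factors, 5 were called lower and 5 higher at 14 dpt, the latter count being 8 without mock replicate 2 and 1 without mock replicate 3. At 7 dpt 5 of them were called lower and 9 higher, and at 1 dpt 4 lower and 2 higher. Other peroxidases were called lower in 12 of 25 and higher in 7 at 14 dpt (4 without 2,4-D replicate 3). At that time other cytochromes P450 were called lower in 9 of 28 and higher in 7, and other UDP-sugar transferases lower in 7 of 20 and higher in 5. At 7 dpt, peroxidases, cytochromes P450 and UDP-sugar transferases had 13, 14 and 10 lower calls and 9, 12 and 8 higher calls. At 1 dpt they had 7, 7 and 7 lower calls and 6, 5 and 5 higher calls. With 1 library left out, their fewest higher calls at 7 dpt were 6, 7 and 5, and their fewest lower calls at 1 dpt 1, 3 and 1. Whether lists differed from each other was not tested.

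**Figure D4:**
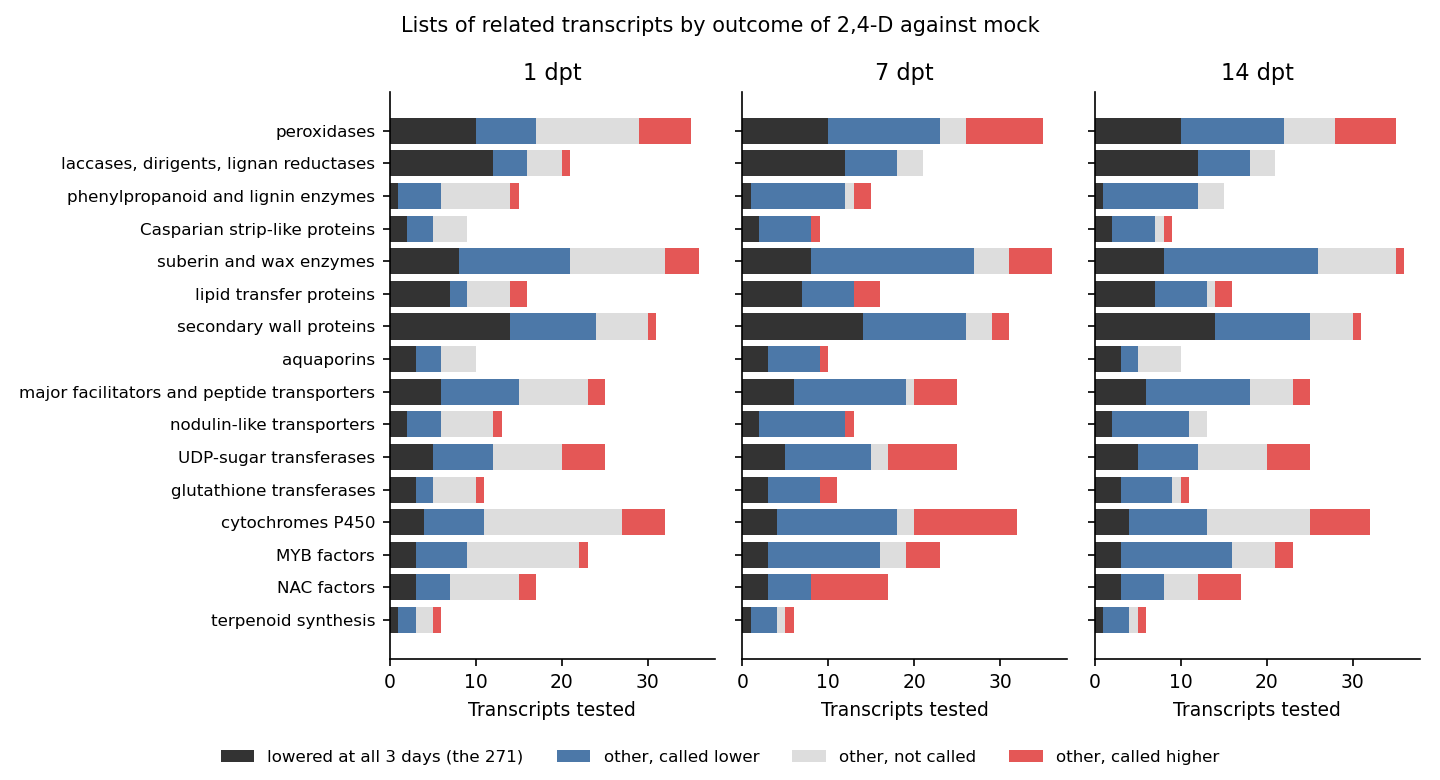
Tested transcripts of 16 lists at 1, 7 and 14 dpt, by outcome of 2,4-D against mock. Black marks the members, which are the same at all times; blue, grey and red mark other transcripts that edgeR called lower, did not call or called higher. Secondary wall proteins hold 14 members and NAC factors 5 other transcripts called higher at 14 dpt.

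The rule did not use changes within a treatment over time, but it did use the levels at 7 and 14 dpt that such changes compare. In mock roots edgeR called 0 of the 271 members higher and 0 lower at 14 dpt, as it called 0.0% of all 15149 tested transcripts in each direction. The count of 0 is thus not particular to the members. At an unadjusted p under 0.05 there were 12 members, 10 lower and 2 higher, beside 5.37% of all tested transcripts. DESeq2 called 0 members and 18 transcripts in all. The test of limma-voom called 1 member, the O-methyltransferase LOC_Os11g12760.1, lower (adjusted p = 0.0164), for which edgeR gave a log2 fold change of -2.17 ± 0.74 (SE, n = 3 and 3) and an adjusted p of 0.884. By limma-voom 75 members had an unadjusted p under 0.05, beside 579 of the 15149 tested transcripts, and by DESeq2 14, beside 1053.

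As a description, the members nonetheless leaned to lower levels in older mock roots. Their median log2 fold change was -0.52, against -0.01 over all tested transcripts, and 247 of 271 lay below 0, against 51.3% of those tested. All members share the same libraries, so this count is not one of independent changes. Without mock 7 dpt replicate 1 the median was -0.29, and without mock 14 dpt replicate 3 it was -0.92, these being the ends of the range with 1 library left out. The 3 libraries of 14 dpt lay below those of 7 dpt for 33 members, and above them for 2, beside 2.94 and 2.77% of tested transcripts. Over the 3 times, mean mock CPM was highest at 1 dpt for 176 members, at 7 dpt for 90 and at 14 dpt for 5, where tested transcripts divided as 37.5, 32.7 and 29.7%. The 1 dpt libraries come from the other sequencing batch.

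In 2,4-D roots edgeR likewise called 0 members higher and 0 lower from 7 to 14 dpt, as 0.0% of all tested transcripts. At an unadjusted p under 0.05 there were 34 members, 31 lower and 3 higher, beside 4.79% of tested transcripts, and DESeq2 and limma-voom called 0 members, and 4 and 0 transcripts in all. The tools differed here: an unadjusted p under 0.05 was given to 1 member by limma-voom, beside 505 of the 15149 tested transcripts. By DESeq2 it was given to 48, beside 985. The 3 libraries of 14 dpt lay below those of 7 dpt for 3 members and above them for 2, beside 4.6 and 3.71% of tested transcripts. The median log2 fold change by edgeR was -0.68, against 0.02 over all tested transcripts, and 217 members lay below 0 (47.5% of those tested). These values rest on low levels, since in the 6 libraries compared only 71 of the 271 members reached 10 CPM in 2 libraries or more, beside 268 in the mock comparison. The lean rested on 1 library: without 2,4-D 7 dpt replicate 3 the median was 0.19. Without 2,4-D 14 dpt replicate 2 it was -1.20.

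**Figure D5:**
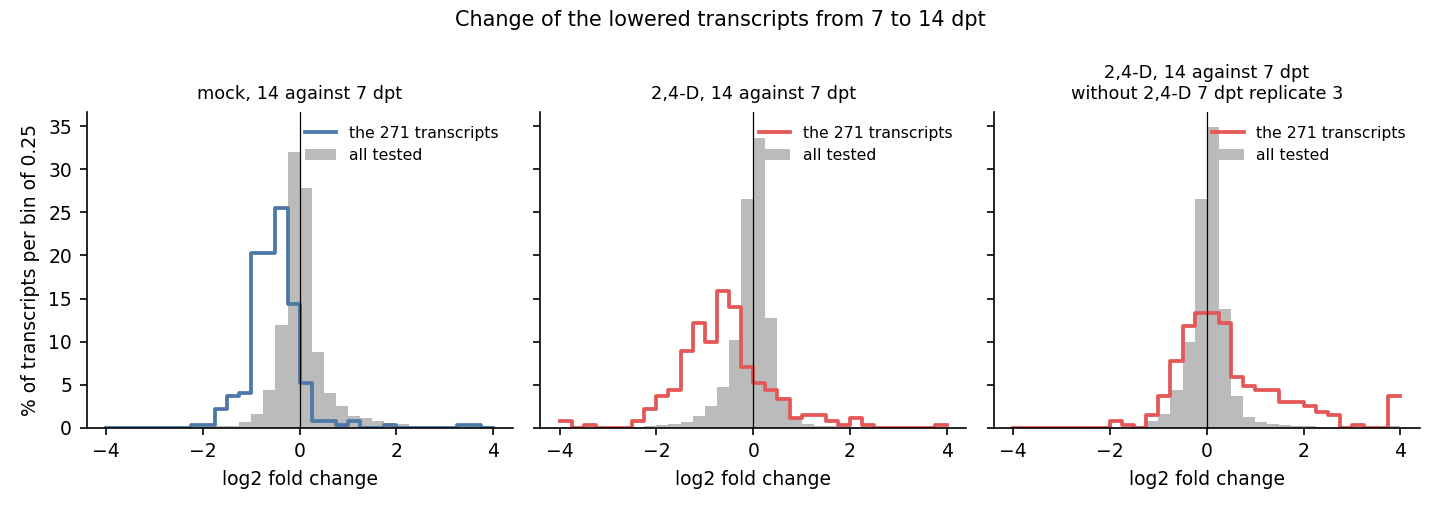
Log2 fold change from 7 to 14 dpt in mock roots, in 2,4-D roots, and in 2,4-D roots without replicate 3 of 7 dpt, in bins of 0.25 with values past 4 in either direction drawn in the end bins. Grey bars are all tested transcripts and lines the 271 members, whose medians are -0.52, -0.68 and 0.19.

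The 2,4-D library of 7 dpt replicate 3 stood apart for most members. It held the highest level of its group for 246 of the 271 (90.8%), where it did so for 43.4% of tested transcripts. Its median member stood at 20.3% of the mock mean, beside 5.72 and 4.53% in replicates 1 and 2, and 2 members had a count of 0 in it, beside 14 and 17. Without that library the median L at 7 dpt was -3.56 and the rule took 320 transcripts, which included all 271. In the mock group of 14 dpt, replicate 3 was highest for 238 members (87.8%, against 44.0% of tested transcripts), and without it the median L at 14 dpt was -2.37 and the rule took 208, of which 207 were members. In mock roots of 7 dpt, replicate 3 was lowest for 207 members, while it was lowest for 45.1% of tested transcripts. At 14 dpt, 2,4-D replicate 2 was highest for 199 members (73.4%, against 38.8%).

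Single libraries also moved the L of single members. Leaving out 1 library of the day changed the ratio by more than 1.5-fold for 63 of 271 members at 1 dpt, 146 at 7 dpt and 134 at 14 dpt. At 7 dpt 127 of these had a lower L without 2,4-D replicate 3, and at 14 dpt 75 had a higher L without mock replicate 3 and 54 a lower L without 2,4-D replicate 2. At 1 dpt the library with most such members was 2,4-D replicate 3, without which L was lower for 41. An L above -2 resulted for up to 24 members at 1 dpt (without mock replicate 1), up to 45 at 7 dpt (without 2,4-D replicate 2) and up to 64 at 14 dpt (without mock replicate 3).

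At 7 and 14 dpt more than 0.5 of the members thus had the same highest library in each group. At 1 dpt the highest 2,4-D library was replicate 1 for 110 members, replicate 2 for 46 and replicate 3 for 117, and the highest mock library was replicate 1 for 142, replicate 2 for 107 and replicate 3 for 22. The GH3 transcript did not follow a fixed order beside them: it held 802, 531 and 449 CPM in the 2,4-D libraries of 7 dpt and 532, 1064 and 149 CPM in those of 14 dpt. At 7 dpt the library with the highest member levels had the lowest GH3 level, and at 14 dpt the library with the highest member levels had the highest. The photosystem II transcript held 25.3, 21.1 and 14.4 CPM in the 2,4-D libraries of 7 dpt. The part of tissue composition in these differences was not tested.

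The members with the lowest mean L included 5 without a name. LOC_Os03g19420.2 and LOC_Os03g19427.1 are neighbours whose levels ran in parallel, and reads may be shared between them. The first held 153, 511 and 89.6 CPM in mock roots at 1 dpt, 273, 8.23 and 14.2 CPM at 7 dpt and 2242, 504 and 342 CPM at 14 dpt. In 2,4-D roots it held 45.7, 4.90 and 3.20 CPM, 1.28, 2.53 and 1.03 CPM, and 3.08, 4.21 and 10.04 CPM. Mock replicates of a day differed by up to an order of magnitude or more, while the 2,4-D libraries of 7 and 14 dpt were uniformly low. L was -3.74, -5.25 and -7.25, and it was -2.22 at 7 dpt without mock replicate 1, -5.64 at 1 dpt without 2,4-D replicate 1 and -5.97 at 14 dpt without mock replicate 1.

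LOC_Os11g04020.1 had a like pattern, with 353, 32.3 and 38.3 CPM in mock roots at 7 dpt and 1051, 287 and 305 CPM at 14 dpt, against 0.57 to 19.8 CPM over all 2,4-D libraries. Its L was -4.24, -5.89 and -7.02, and at 7 dpt -3.92 without mock replicate 1. Among the 8 members with the lowest mean L, mean mock levels were higher at 14 than at 7 dpt in these 3. The log2 fold change by edgeR was 3.42 ± 1.34 for LOC_Os03g19420.2, 3.61 ± 1.34 for LOC_Os03g19427.1 and 1.99 ± 1.10 for LOC_Os11g04020.1 (SE, n = 3 and 3), and none was called (adjusted p = 0.905, 0.884 and 0.922).

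LOC_Os11g07770.1 held 82.4, 59.3 and 33.0 CPM in mock roots at 1 dpt, 118, 13.7 and 24.1 CPM at 7 dpt and 11.9, 41.8 and 68.3 CPM at 14 dpt, and from 0 to 1.72 CPM over the 2,4-D libraries. Its L of -5.08 at 7 dpt was -3.67 without mock replicate 1. LOC_Os10g31730.1 had the widest range of L, 3.88, with -3.09, -6.97 and -4.98. Its mock libraries of 7 dpt held 177, 189 and 275 CPM and its 2,4-D libraries 1.20, 0.65 and 0.28 CPM. Here 2,4-D replicate 3 was the lowest of its group, in the opposite order to that of most members.

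Members often lay near each other on the chromosomes. Locus numbers mark the order along a chromosome, mostly in steps of 10. Of the 271 member loci, 78 (28.8%) lay within 100 locus numbers of another member, in 32 runs of which 9 held 3 or more. Among pairs of a member and any tested locus within 10 locus numbers, the neighbour was a member in 32 of 199 (16.1%), and within 100 numbers in 120 of 1824 (6.58%), while members were 1.8% of the 15042 tested loci. By chromosome the share of tested loci that were members ran from 0.867% on chromosome 9 to 3.05% on chromosome 10. Neighbouring copies of similar sequence may share reads, and how such reads were handled is not given in the sources used here. Whether values within a run are independent was not tested.

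The runs were of several kinds. On chromosome 10 a run of 5 from LOC_Os10g40460.1 to LOC_Os10g40620.1 held 2 lipid transfer proteins, a DUF566 protein (LOC_Os10g40620.1) and 2 transcripts without a name. Its LOC_Os10g40530.1 was among the 8 members with the highest mock level. At 1 dpt it held 472, 894 and 442 CPM in mock roots and 37.98, 19.8 and 178 CPM in 2,4-D roots. LOC_Os10g40480.1 held 80.5, 177 and 58.3 CPM against 0.22, 0.08 and 33.7 CPM, LOC_Os10g40460.1 54.0, 42.7 and 13.2 CPM against 0, 0.16 and 7.88 CPM, and LOC_Os10g40520.1 65.9, 192 and 89.9 CPM against 8.58, 4.50 and 31.7 CPM. In all 4 the 2,4-D replicate 3 of 1 dpt stood well above the others, and L at 1 dpt without it was -4.34, -6.53, -5.12 and -3.95, which was not so for the DUF566 protein (10.6, 5.45 and 5.66 CPM).

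On chromosome 5 the unnamed LOC_Os05g12180.1, LOC_Os05g12210.1 and LOC_Os05g12240.1 shared that order, with 7.14, 7.30 and 4.59 CPM in 2,4-D replicate 3 of 1 dpt and at most 0.40 CPM in the other 2 libraries. At 7 dpt their mock levels rested on replicate 1, with 24.1, 27.1 and 30.3 CPM beside 1.07 to 7.43 CPM in replicates 2 and 3. Without mock replicate 1, L at 7 dpt went from -3.35 to -1.83 for LOC_Os05g12180.1, from -3.38 to -1.72 for LOC_Os05g12210.1 and from -3.80 to -2.39 for LOC_Os05g12240.1. In the same order, L at 14 dpt went from -2.34, -2.44 and -2.58 to -1.55, -1.68 and -1.84 without mock replicate 3. The peroxidases LOC_Os05g04440.1, LOC_Os05g04470.1 and LOC_Os05g04500.1 form another run, with mean L lowest in the last. LOC_Os05g04470.1 stayed near the threshold at 7 and 14 dpt (L of -2.12 and -2.25), and without mock replicate 1 its value at 7 dpt was -1.79. The fasciclin-like proteins LOC_Os05g48890.1 and LOC_Os05g48900.1 lie in a run with NAC domain protein 73 (LOC_Os05g48850.1) and the DUF679 protein LOC_Os05g48840.1, whose L was -2.39, -2.47 and -2.52.

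Chromosome 7 held 2 runs of hydroxyproline-rich glycoproteins, structural proteins of the cell wall, and their unnamed neighbours. In the first, LOC_Os07g04930.1 held 104, 82.5 and 140 CPM in mock roots at 1 dpt and 66.0, 44.7 and 24.9 CPM at 7 dpt, and LOC_Os07g04940.1 held 93.2, 81.2 and 97.0 CPM and 63.6, 43.8 and 20.9 CPM. LOC_Os07g04950.1 and LOC_Os07g04960.1 followed the same order of libraries at 7 dpt, and the 4 had L of -3.30 to -3.94 at 14 dpt. In the second, LOC_Os07g40870.1, LOC_Os07g40890.1 and LOC_Os07g40910.1 had L of -2.41, -2.15 and -2.99 at 1 dpt and of -3.14, -3.22 and -3.40 at 14 dpt. L was thus lower at 14 than at 1 dpt in all 7, but without mock 14 dpt replicate 3 this order turned in LOC_Os07g04950.1 (-3.36 at 1 dpt and -3.07 at 14 dpt) and LOC_Os07g04960.1 (-3.89 and -3.16).

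Of the remaining runs of 3 or more, that from LOC_Os03g59030.1 (a UDP-glycosyltransferase) over LOC_Os03g59110.1 and LOC_Os03g59210.1 to LOC_Os03g59280.1 (a cupredoxin, of the copper protein family) had L of -2.06 to -4.69. LOC_Os10g31630.1, LOC_Os10g31670.1 and LOC_Os10g31730.1, all without a name, each had their lowest L at 7 dpt, -3.94, -6.21 and -6.97. LOC_Os11g07770.1 lay between the dirigent-like LOC_Os11g07680.1 and LOC_Os11g07830.1 and was lower than both, with L of -4.97, -5.08 and -4.63 beside -2.04, -2.22 and -2.13 for the former.

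The threshold cut through a continuous range. The members just inside it, by their largest L, were LOC_Os11g34440.1 (at the threshold to 2 decimals, not named), LOC_Os12g02030.1 (-2.02, a BTB/POZ domain protein) and LOC_Os01g68580.1 (-2.02, a lipid transfer protein). Just outside were LOC_Os05g49760.1 (-1.997, a cytosolic isocitrate dehydrogenase), LOC_Os02g22680.1 (-1.99, not named) and LOC_Os01g24570.1 (-1.99, a granulin repeat cysteine protease). In all, 32 members had their largest L within 0.1 of the threshold, and 19 further transcripts that met the other conditions lay within 0.1 on its other side. With 1 library left out at a time the rule took 208 to 320 transcripts, and 141 members were taken in all 18 of these selections.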

How the data were processed

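Condition, time and replicate were read from the sample labels for 18 libraries of rice roots. The authors aligned the reads to the rice genome (MSU, version 7) and counted them per transcript with featureCounts, and the deposited values are raw counts, not normalized. For the strand setting and for reads matching several loci or isoforms, the choice is not given in the sources used here. Here CPM was the count scaled to the library total. Tests used edgeR 4.0.16 in R 4.3.3 (TMM factors, robust quasi-likelihood fit of the 6 groups over all 18 libraries, no covariate, Benjamini-Hochberg adjustment) over 15149 transcripts with 10 CPM or more in 2 or more libraries, calling transcripts with an adjusted p under 0.05 whose log2 fold change was at least 1 in either direction. All 271 members passed this filter. A member that is high only in mock roots passes through them, so this count says nothing about the members.

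The members, the lists and the alternatives were chosen with earlier results of these data known. Lists take transcripts by words in the names of the study's supplementary tables, of which only identifiers and names were used. Their columns of the authors' own fold changes and p-values were not used. By rule the text names, per list, the member with the highest mock level, the 8 members with the lowest mean L, the 8 with the highest mock level, 3 on each side of the threshold and the members of runs of 3 or more; others are said to have been picked after their values were seen. Alternatives were DESeq2 1.42.0, limma-voom (limma 3.58.1), RLE factors, library totals alone, other filters, fewer libraries, a replicate block, no fold threshold and each library left out. Leaving libraries out of the median L and of the L of every member was added after the data had been seen. No reference table with these identifiers was used, and no sequence was printed. Levels are not scaled to transcript length, so levels of different genes were not ranked as amounts. Libraries are separate biological replicates per the labels. Tallies used pandas 2.3.3 and figures matplotlib 3.10.9.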

Additional observations from a re-analysis of the deposited data

How the results depend on the processing

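The rule took 285 transcripts with TMM-scaled CPM, 302 and 202 with a pseudocount of 0.5 and 2, 269 with first isoforms only, and 208 to 320 with 1 library left out. No member was called between 7 and 14 dpt in mock or 2,4-D roots under any alternative, except 1 called lower in mock roots by limma-voom (LOC_Os11g12760.1, adjusted p = 0.0164). The median log2 fold change from 7 to 14 dpt in 2,4-D roots changed sign without 2,4-D 7 dpt replicate 3, to 0.19, and was -1.20 without 2,4-D 14 dpt replicate 2. With 1 library left out, other transcripts of the lists were called higher in 20 to 35 and lower in 36 to 85 at 1 dpt, in 41 to 60 and 107 to 147 at 7 dpt, and in 27 to 42 and 99 to 130 at 14 dpt. In a fit of only the 6 libraries of 14 dpt they were 21 higher and 79 lower, with 202 tested. The cause was not tested. Same-numbered libraries did not deviate together in every comparison (r of -0.58 to 0.50). Numbers 1 and 2 correlated best with their own in mock roots between 7 and 14 dpt, as did number 2 in 2,4-D against mock at 14 dpt. In no comparison did every number do so, and numbers were not taken as pairs. With the replicate block 35, 66 and 33 of the other transcripts of the lists were called higher at 1, 7 and 14 dpt. The block gave 75, 141 and 126 lower calls among them, and 0 members called between 7 and 14 dpt. With 3 libraries a group, depth limits members with a mean 2,4-D CPM under 1 (21, 46 and 64), whose L depends on the pseudocount.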
